A study of Homo sapiens with 92 samples.

Results

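The integrin subunits described here are the 10 genes ITGA11, ITGA8, ITGA2, ITGA3, ITGA5, ITGAV, ITGB1, ITGB3, ITGB5 and ITGB8. They were taken as the entries of every count table that carried one of these 10 gene symbols, each of which occurred once among the 48907 genes used. The data are 92 SLAM-seq libraries in 32 groups. In this assay the nucleoside 4-thiouridine (4sU) is built into new RNA and then alkylated, so that it is read as a T-to-C change. Reads with such changes (converted reads) are taken to count RNA made during labelling. No library was made without 4sU, so the share of converted reads that arises without label was not measured. The files gave converted reads and all reads for each gene.

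The cells were hTERT RPE-1, a telomerase-immortalised human retinal pigment epithelium line, of the single clone NIPBL-D7 with the genotype mGreenLantern-P2A-FKBP12(F36V)-NIPBL. NIPBL loads the ring complex cohesin on chromosomes. Its FKBP12(F36V) tag lets the small molecule dTAGV-1 direct the protein to degradation. Every RPE-1 library, the DMSO controls included, carried the tagged gene, and the NIPBL protein itself is not measured by these files. Cells were arrested with 2 mM thymidine in a double block and with 20 ng/ml nocodazole for 120 min, collected by mitotic shake-off and released. In the mitosis series DMSO or dTAGV-1 was added together with nocodazole and kept after release. In the release series the titles give only the time after release as treatment, while the shared treatment protocol describes drug added with nocodazole. The titles were followed here, so a later start of the drug in that series rests on the titles alone. Labelling used 100 µM 4sU for 15 or 120 min and fell inside the treatment time.

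In the mitosis series with 15 min of 4sU, the time points were 0 min after release (3 DMSO and 4 dTAGV-1 libraries), 30 min (3 of each arm), 60 and 90 min (4 of each), 120 min (4 DMSO and 3 dTAGV-1) and 4, 6 and 8 h (2 of each arm per time). The release series had 3 libraries per arm at 30, 60, 90 and 120 min. Both series had 3 libraries per arm with 120 min of 4sU ending 120 min after release. The remaining groups, 2 libraries per arm, are titled as WTC11, an induced pluripotent stem cell line, differentiated to ventricular cardiomyocytes or to neurons, post-mitotic, with 4 h of DMSO or dTAGV-1 and 120 min of 4sU. Their cell line field names hTERT RPE-1 and gives the same tagged genotype. Nothing in the labels says that libraries of a group came from separate cultures, so p-values measure only the spread between these libraries, which may be technical.

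Integrins are heterodimers of 1 alpha and 1 beta subunit that span the plasma membrane and bind extracellular matrix outside the cell and, through talin and kindlin, actin filaments inside it. ITGB1 pairs with many alpha subunits, while ITGB5 and ITGB8 pair mainly with ITGAV, which is also a partner of ITGB3. The adhesion complexes that form around integrins are taken apart as adherent cells round up in mitosis and are rebuilt as the cells spread again in G1.

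Positions are given on hg38 as in the files. ITGA11 (ENSG00000137809), a collagen receptor subunit of mesenchymal cells, lies at chr15:68296533-68432162 on the minus strand, and ITGA2 (ENSG00000164171), a collagen and laminin receptor subunit, at chr5:52989326-53094779 on the plus strand. Of the alpha subunits that recognise the tripeptide RGD, ITGA5 (ENSG00000161638), which makes the fibronectin receptor with ITGB1, lies at chr12:54395261-54419460 on the minus strand. ITGA8 (ENSG00000077943), which binds nephronectin, is at chr10:15513949-15720125 on the minus strand. ITGAV (ENSG00000138448) is at chr2:186590065-186680901 on the plus strand. ITGA3 (ENSG00000005884), a laminin receptor subunit, is at chr17:50055968-50090481 on the plus strand. Of the beta subunits, ITGB1 (ENSG00000150093) is at chr10:32900319-33005792 on the minus strand, ITGB3 (ENSG00000259207) at chr17:47253846-47311816 on the plus strand, ITGB5 (ENSG00000082781) at chr3:124761948-124901418 on the minus strand, and ITGB8 (ENSG00000105855), which with ITGAV activates latent TGF-beta, at chr7:20330702-20415754 on the plus strand.

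The promoters of 4 members are shown because 3 of these genes, ITGA11, ITGA8 and ITGB8, carried lower converted reads with dTAGV-1 in at least 1 comparison, while ITGA2 passed the test in none of the drug comparisons. Each is the 250 bases before the start that RefSeq gives (GRCh38.p14), 5′ to 3′ on the gene's strand, and capitals mark the motifs found. The window of ITGA11 is chr15:68432164-68432413 (minus strand), that of ITGA8 chr10:15719923-15720172 (minus), that of ITGB8 chr7:20330650-20330899 (plus) and that of ITGA2 chr5:52989102-52989351 (plus). RefSeq's start was 1 base upstream of the start in the files for ITGA11, and 203, 198 and 26 bases downstream of it for ITGA8, ITGB8 and ITGA2.
ITGA11: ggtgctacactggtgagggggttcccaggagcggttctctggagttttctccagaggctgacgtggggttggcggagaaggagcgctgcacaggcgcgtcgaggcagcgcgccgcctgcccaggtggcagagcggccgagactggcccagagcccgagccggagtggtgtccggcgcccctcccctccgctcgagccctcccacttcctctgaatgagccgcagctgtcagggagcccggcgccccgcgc
ITGA8: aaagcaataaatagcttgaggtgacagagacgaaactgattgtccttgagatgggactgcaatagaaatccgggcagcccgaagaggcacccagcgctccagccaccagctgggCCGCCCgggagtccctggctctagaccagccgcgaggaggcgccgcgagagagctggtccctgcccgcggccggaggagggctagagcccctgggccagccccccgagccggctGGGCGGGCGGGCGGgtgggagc
ITGB8: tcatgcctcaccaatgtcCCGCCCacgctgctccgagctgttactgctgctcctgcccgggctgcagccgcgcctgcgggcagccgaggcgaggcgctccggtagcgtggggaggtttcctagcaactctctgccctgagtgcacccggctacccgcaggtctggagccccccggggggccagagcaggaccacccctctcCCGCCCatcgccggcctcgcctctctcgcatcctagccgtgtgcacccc
ITGA2: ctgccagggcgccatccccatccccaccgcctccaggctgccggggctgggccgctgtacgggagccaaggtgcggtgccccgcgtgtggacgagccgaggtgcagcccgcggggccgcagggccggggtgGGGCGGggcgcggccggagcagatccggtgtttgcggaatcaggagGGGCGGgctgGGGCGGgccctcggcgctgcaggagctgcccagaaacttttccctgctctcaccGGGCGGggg
Motifs were searched on both strands: AP-1 (TGANTCA), TEAD (GGAATG), the GC box bound by SP proteins (GGGCGG), the TATA box (TATAAA) and the CArG box of serum response factor. The ITGA11 window held none of them. The windows of ITGA8 and ITGA2 held 4 GC boxes each, some of those in ITGA8 overlapping one another, and that of ITGB8 held 2. Among 35116 promoters of the same length, 42.6% held a GC box, 6.57% an AP-1 match, 11.9% a TEAD match, 10.7% a TATA match and 1.16% a CArG match. The GC content was 71.2% for ITGA11 and ITGB8, 68.0% for ITGA8 and 76.4% for ITGA2, against a median of 58.0% over all of these promoters. RefSeq windows were found for 8 of the 10 members. ITGA3 and ITGB3 were the other two.

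Libraries held 0.420 to 35.4 M (1000000) converted reads and 10.7 to 114 M reads in all. Levels are CPM, the converted reads of a gene for each M converted reads of its library, with the totals scaled by TMM. They are relative to the other converted reads in a library. In DMSO of the mitosis series with 15 min of 4sU, the median gene had 2.61% of its reads converted at 0 min and 3.48% at 120 min. ITGA3 had 1.65% and 1.85%. How much of these shares is RNA made before labelling was not tested. Changes are dTAGV-1 minus DMSO on the log2 scale with their standard error, and a gene was called at an adjusted p under 0.05 (edgeR's quasi-likelihood test, Benjamini-Hochberg over all genes tested). One library, replicate 3 of the mitosis DMSO group at 120 min, held 0.645 M converted reads, of which its 10 highest genes took 13.4%, while in the others of its group that share was 3.44 to 3.75%. Cardiomyocyte markers summed to 3462 to 3813 CPM in the DMSO libraries titled as cardiomyocytes, 53.4 to 55.8 CPM in those titled as neurons and 1.80 to 7.04 CPM in RPE-1 with 120 min of 4sU. Neuron markers summed to 1835 to 1913 CPM in the neurons and 206 to 283 CPM in the cardiomyocytes. In RPE-1 DMSO libraries with 120 min of 4sU they summed to 906 to 2229 CPM in the release series and 283 to 427 CPM in the mitosis series. In that release group SYT1 averaged 1544 CPM and MAP2 106 CPM, and the next highest neuron marker, SNAP25, averaged 0.629 CPM. In DMSO neurons MAP2 averaged 1055 CPM, SYT1 365 CPM and TUBB3 0.603 CPM, and TUBB3 averaged 0.45 CPM in the mitosis RPE-1 group. NKX2-5 averaged 4.0 CPM and NPPA 0.443 CPM in cardiomyocytes, and NKX2-5 3.29 CPM in RPE-1 of the release series. Pluripotent markers summed to 93.0 to 105 CPM in cardiomyocytes and 143 to 153 CPM in neurons, with LIN28A at 96.2 and 144 CPM. In RPE-1 DMSO libraries they summed to at most 0.261 CPM.

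ITGB3 was listed in 2 libraries with 2 reads, none of them converted. A count of 0 among 433.6 M converted reads allows up to 0.00692 CPM, counting error only. A separate gene entry on the same strand, RP11-290H9.2, covers 57.9 kb of the span of ITGB3 and held 46998 reads. How reads shared by such entries were counted is not given in the sources used here, so a level of ITGB3 cannot be stated from these tables. RP11-290H9.2 itself was lower with dTAGV-1 at 4 to 8 h (a mean change of −1.09 ± 0.28, adjusted p = 0.00936), at 6.07 and 2.25 CPM for DMSO and dTAGV-1 at 4 h. It was not called in the means over 30 to 120 min (−0.09 in the mitosis series and −0.30 in the release series). ITGB1 is overlapped over 47.0 kb by RP11-462L8.1 on the opposite strand, which held 133710 reads, and whether the counting used strand is not given either. RP11-462L8.1 was higher with dTAGV-1 at 4 to 8 h (0.53 ± 0.09, adjusted p = 0.000305, edgeR) and not called in the means over 30 to 120 min (0.27 and 0.04). From 0 to 120 min of the mitosis series it rose by 1.63 in DMSO and 2.05 in dTAGV-1. Its part in the values of ITGB1 was not tested.

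Levels of different subunits were compared only per kb of gene span. The span includes introns, whether the counts do is not given, and the order depends on this divisor. ITGA5 and ITGA3 have the shortest spans of the members, 24.2 and 34.5 kb. Before division, in the mitosis DMSO libraries with 120 min of 4sU, ITGB1 (1007 CPM) and ITGA2 (780 CPM) stood above ITGA3 (506 CPM) and ITGA5 (367 CPM). In DMSO libraries of the mitosis series with 120 min of 4sU, ITGA5 and ITGA3 stood highest at 15.2 and 14.7 CPM per kb, and their libraries overlapped. ITGB1 followed at 9.55 and ITGA2 at 7.40 CPM per kb, again overlapping, then ITGB5 and ITGAV at 2.43 and 2.42 CPM per kb, also overlapping. ITGB8 at 0.902 and ITGA11 at 0.564 CPM per kb did not overlap, and ITGA8 was lowest. In the release series the order was ITGA3 at 14.5, ITGB1 at 8.99, ITGA5 at 7.72 and ITGA2 at 7.03 CPM per kb, the last 3 overlapping as neighbours. In cardiomyocytes ITGAV was highest at 4.53 CPM per kb, followed by ITGB1 at 3.38, and then ITGB8 at 1.66 and ITGA5 at 1.52, which overlapped. In neurons ITGB8 was highest at 3.02 CPM per kb, followed by ITGB1 at 1.86, and then ITGA5 at 0.771 and ITGAV at 0.752, which overlapped.

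ITGA11 was the only integrin subunit in this set with lower converted reads under dTAGV-1 in all 5 of the RPE-1 comparisons that either average over times or use the long label. At 120 min and later after release the arms lay apart. At 0 min, DMSO libraries of the mitosis series stood at 15.0, 16.1 and 19.1 CPM and dTAGV-1 libraries at 32.9, 12.0, 18.1 and 11.8 CPM. At 90 min DMSO libraries stood at 94.6, 66.2, 55.5 and 38.1 CPM and dTAGV-1 libraries at 44.2, 30.9, 23.4 and 20.4 CPM. At 120 min DMSO libraries stood at 159.8, 107.8, 33.2 and 91.0 CPM and dTAGV-1 libraries at 32.7, 22.6 and 28.6 CPM. The arms overlapped at 0 and 90 min and did not at 120 min, where the lowest DMSO library, that with concentrated reads, stood just above the highest dTAGV-1 library.

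By the test, ITGA11 was lower by 1.86 ± 0.39 at 120 min (98.0 ± 52.2 CPM, SD, n = 4, against 27.9 ± 5.08 CPM, n = 3, adjusted p = 0.00642), where 0.95% of all genes were called. Without the library of concentrated reads the change was −2.10 (adjusted p = 0.000547). The change was 0.13 ± 0.47 at 0 min, −0.02 ± 0.46 at 30 min, −0.57 ± 0.38 at 60 min and −1.13 ± 0.35 at 90 min, and none of these passed (adjusted p = 0.284 at 90 min). At 0, 30 and 60 min edgeR called none of all genes tested (355, 195 and 155 at an unadjusted p under 0.05), DESeq2 also called none, and at 90 min 0.366% were called. Averaged over 30 to 120 min, ITGA11 was lower by 0.90 ± 0.20 (means over times of 23.0 and 50.9 CPM, adjusted p = 0.00886). It was the 1 subunit called among 9 tested, and 1.27% of all genes were called. That average was lost without replicate 2 (adjusted p = 0.177), 3 (0.0584) or 4 (0.0826), and the call at 120 min was lost without replicate 2 (0.233) or 4 (0.141).

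Later in the same series the arms were far apart. At 4 h ITGA11 stood at 46.2 and 56.2 CPM in DMSO and 9.94 and 11.9 CPM in dTAGV-1. At 6 h it stood at 48.4 and 54.6 CPM against 7.88 and 7.98 CPM, and at 8 h at 41.3 and 52.0 CPM against 5.81 and 9.17 CPM. The highest dTAGV-1 library of these times, at 11.9 CPM, lay far below the lowest DMSO library, at 41.3 CPM. In DMSO the change of ITGA11 from 4 to 8 h was −0.13, which was not called. The changes were −2.23 ± 0.22, −2.70 ± 0.23 and −2.62 ± 0.22 (adjusted p = 4.01e-06, 6.56e-07 and 6.99e-07), where 5.4%, 7.08% and 8.14% of all genes were called. The mean over these times was −2.52 ± 0.13 (adjusted p = 2.38e-10), and ITGA11 was the 1 of 8 subunits called, against 19.8% of all genes.

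**Figure D1:**
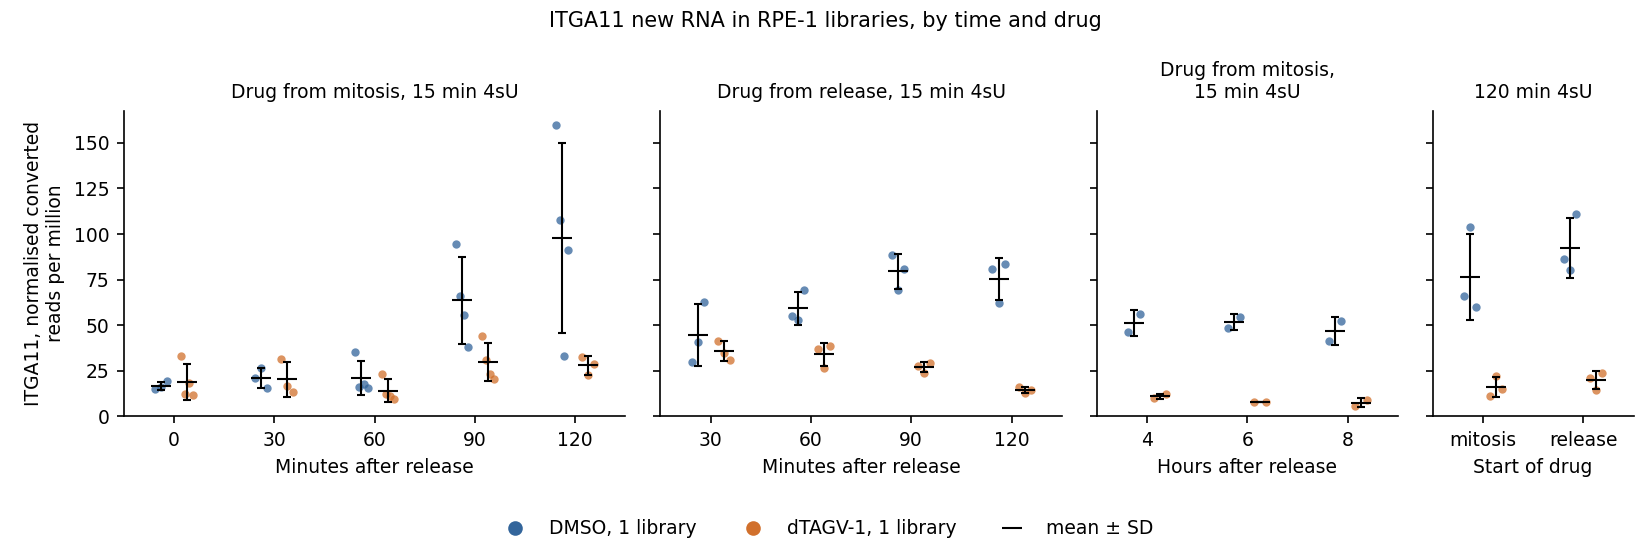
ITGA11 converted reads in CPM (linear axis from 0) by time after release, for the mitosis series (drug from mitosis), the release series (drug from release by its titles) and the libraries with 120 min of 4sU. Points are single libraries, blue for DMSO and orange for dTAGV-1, with the mean ± SD in black. At 6 h the DMSO libraries sit at 48.4 and 54.6 CPM and the dTAGV-1 libraries at 7.88 and 7.98 CPM.

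In the release series, in which the titles count treatment from release, ITGA11 again separated with time. At 30 min DMSO libraries stood at 29.6, 40.8 and 63.0 CPM and dTAGV-1 libraries at 41.5, 34.9 and 30.9 CPM. At 60 min they stood at 55.3, 52.8 and 69.4 CPM against 36.7, 26.7 and 38.5 CPM. At 120 min they stood at 80.7, 62.0 and 83.5 CPM against 15.9, 12.9 and 14.1 CPM. The arms overlapped at 30 min and at no later time of the series. The change was −0.28 ± 0.22 at 30 min and −0.80 ± 0.21 at 60 min (adjusted p = 0.424, with 0.0287% of all genes called), neither of which passed. It was −1.56 ± 0.21 at 90 min (79.6 ± 9.60 against 26.9 ± 2.79 CPM, n = 3 each, adjusted p = 0.000189, 0.495% of genes called) and −2.42 ± 0.22 at 120 min (75.4 ± 11.7 against 14.3 ± 1.51 CPM, n = 3 each, adjusted p = 7.36e-07, 1.3% of genes called).

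The mean over 30 to 120 min was −1.27 ± 0.11 (adjusted p = 1.01e-07), the 1 call among 9 subunits tested against 2.1% of all genes. The drug effect on ITGA11 differed between the times of this series (adjusted p = 0.0102 for the interaction of drug and time), which was so for 0.108% of all genes. That call was lost without replicate 1 (adjusted p = 1) or 2 (0.501), and also when libraries were scaled by all reads. In the mitosis series the same interaction gave an adjusted p of 1, and 0.0563% of all genes were called. The drug effect in the mitosis series minus that in the release series was 0.36 ± 0.25 for ITGA11 (adjusted p = 1). No subunit passed that test, by edgeR (0 of 9 also at an unadjusted p under 0.05) or DESeq2, and 0.0951% of all genes did.

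With 120 min of 4sU, ITGA11 in the mitosis series stood at 66.2, 103.7 and 59.7 CPM in DMSO and 11.2, 22.1 and 14.9 CPM in dTAGV-1. It stood in the release series at 86.2, 80.1 and 111 CPM against 21.2, 14.3 and 23.8 CPM. The arms did not overlap in either series. The changes were −2.25 ± 0.28 (adjusted p = 0.000294) and −2.21 ± 0.27 (adjusted p = 0.00101). Of the reads of ITGA11, 39.9 ± 5.18% were converted in DMSO and 16.1 ± 5.09% in dTAGV-1 in the mitosis series, and 40.4 ± 5.48% and 16.4 ± 0.855% in the release series (SD, n = 3 each). The median over all genes was 29.8% and 28.2% in the mitosis series, and 35.1% and 34.4% in the release series. When all reads were tested in place of converted ones the changes of ITGA11 were −1.01 and −0.95, and neither was called.

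The other collagen receptor subunit, ITGA2, had changes of −0.01 ± 0.11, 0.07 ± 0.07 and −0.14 in the mitosis series (30 to 120 min, 4 to 8 h and 120 min of 4sU) and of 0.04 ± 0.07 and 0.08 in the release series. ITGA5 had changes between −0.06 and 0.41 ± 0.22 over the same 5 comparisons, the highest with 120 min of 4sU in the mitosis series. ITGA3 had changes of −0.26 ± 0.10 and −0.26 ± 0.12 in the means over 30 to 120 min (adjusted p = 0.318 and 0.5). None of these 3 genes was called in any of the 5.

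ITGAV was not called in either experiment with 120 min of 4sU, although its dTAGV-1 libraries lay below its DMSO libraries in both. In the mitosis series DMSO libraries ranged from 200.9 to 241.5 CPM and dTAGV-1 libraries from 141.5 to 184.6 CPM, a change of −0.43 ± 0.14 (adjusted p = 0.176). In the release series they ranged from 224.0 to 281.3 CPM against 187.5 to 219.5 CPM, a change of −0.34 ± 0.14 (adjusted p = 0.761). ITGA3 likewise did not overlap in the release series (436.5 to 545.6 against 400.5 to 421.6 CPM), with a change of −0.29 ± 0.20 that was not called. The share of all genes with arms that did not overlap was not counted, so these ranges are descriptions only.

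ITGB8 was called once in RPE-1, in the mitosis series with 120 min of 4sU. DMSO libraries stood at 90.8, 69.0 and 70.5 CPM and dTAGV-1 libraries at 49.4, 49.7 and 43.2 CPM, without overlap. The change was −0.69 ± 0.17 (adjusted p = 0.0462), so that 2 of the 8 subunits tested were called there, against 2.46% of all genes. The call was lost without any 1 replicate (adjusted p = 0.196, 0.409 and 0.0936), with the size factors of DESeq2 (0.0514) and with the series fitted alone (0.108), and stood at 0.00544 with the replicate number as a block. ITGB8 in the release series stood at 97.2, 117.9 and 146.1 CPM against 103.6, 123.5 and 135.5 CPM, a change of 0.01 ± 0.17, and ITGA11 was the 1 subunit called among 8, against 0.718% of all genes. Whether the drug effect on ITGB8 differed between these experiments was not tested.

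ITGB1, the most widely shared beta subunit, had changes of 0.05 ± 0.08, −0.02 ± 0.07 and 0.04 in the mitosis series and of −0.17 ± 0.11 and −0.12 in the release series. ITGB5 had changes of −0.05 ± 0.06, −0.08 ± 0.07 and 0.17, and of −0.07 in both release comparisons. Neither was called. The median change over the subunits tested was −0.02, −0.09 and −0.05 in the mitosis series and −0.07 and −0.09 in the release series, and that over all genes lay between 0.01 and 0.02.

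**Figure D2:**
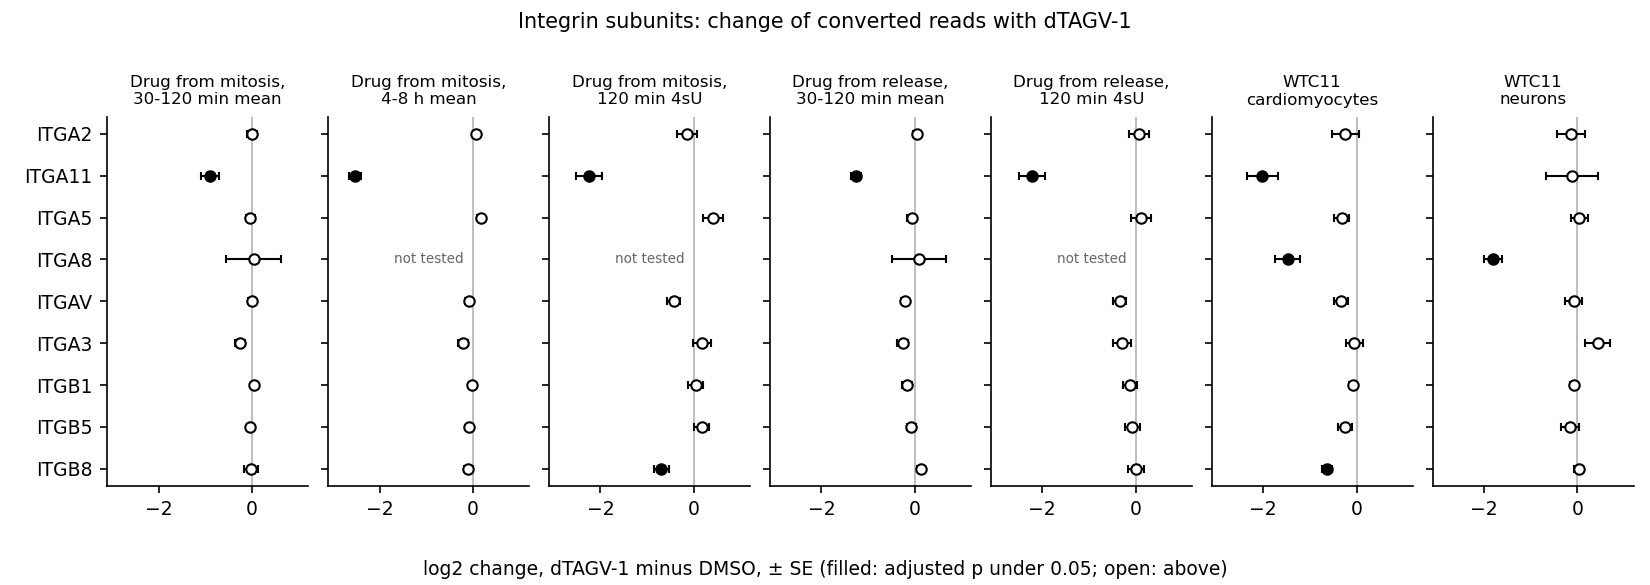
Change with dTAGV-1 (log2, dTAGV-1 minus DMSO) of each integrin subunit except ITGB3 in the 7 main drug comparisons, with standard errors as bars, filled points for an adjusted p under 0.05 and open points above it. ITGA11 lies at −2.52 in the mean over 4 to 8 h, while ITGA2 lies between −0.24 and 0.08 in all comparisons shown.

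Several subunits moved with time after mitosis in both arms. Relative to 0 min, 3 of 9 subunits were called at 120 min in DMSO, ITGA11, ITGA2 and ITGB5, all higher, against 27.8% of all genes, and 3 of 9 in dTAGV-1, ITGA2, ITGB1 and ITGB5, all higher, against 25.3% of all genes. Both shares are near those of all genes. ITGA2 was at 306 ± 24.9 CPM (n = 3) at 0 min and 838 ± 317 CPM (n = 4) at 120 min in DMSO, a rise of 1.46 ± 0.23 (adjusted p = 1.07e-05). In dTAGV-1 it was at 293 ± 65.1 CPM (n = 4) and 973 ± 193 CPM (n = 3), a rise of 1.73 ± 0.22 (adjusted p = 2.73e-07). ITGB5 rose by 0.65 ± 0.13 in DMSO (249 to 389 CPM, adjusted p = 0.000205) and 0.77 ± 0.12 in dTAGV-1 (232 to 397 CPM, adjusted p = 1.13e-05). ITGB1 rose by 0.43 ± 0.16 in dTAGV-1 (adjusted p = 0.0485), a call lost without any 1 replicate number (0.0674 to 0.389), and had 0.35 ± 0.16 in DMSO (adjusted p = 0.111).

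ITGA11 rose in DMSO by 1.93 ± 0.44 at 90 min (adjusted p = 0.0011) and 2.61 ± 0.43 at 120 min (adjusted p = 2.1e-05). In dTAGV-1 its changes from 0 min were 0.67 ± 0.38 at 90 min and 0.61 ± 0.41 at 120 min (adjusted p = 0.312), neither called. At 90 min 4 of 9 subunits were called in DMSO, all higher (24.3% of all genes called), ITGA11, ITGA2 (0.96 ± 0.23), ITGB1 (0.55) and ITGB5 (0.40). In dTAGV-1 3 of 9 were called (31.7% of all genes), ITGA2 (1.04 ± 0.21), ITGB1 (0.49) and ITGB5 (0.43). At 60 min ITGB5 was the 1 subunit called, lower by 0.35 ± 0.13 in DMSO and 0.42 ± 0.12 in dTAGV-1 (35.9% and 38.1% of all genes called). Scaling by all reads moved the median change of all genes at 60 min in DMSO from 0.02 to 0.60 and turned these 2 values of ITGB5 to 0.25 and 0.20. At 30 min no subunit was called in either arm, by edgeR (0 of 9 also at an unadjusted p under 0.05), nor was any other gene (497 and 248 at an unadjusted p under 0.05, none by DESeq2).

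**Figure D3:**
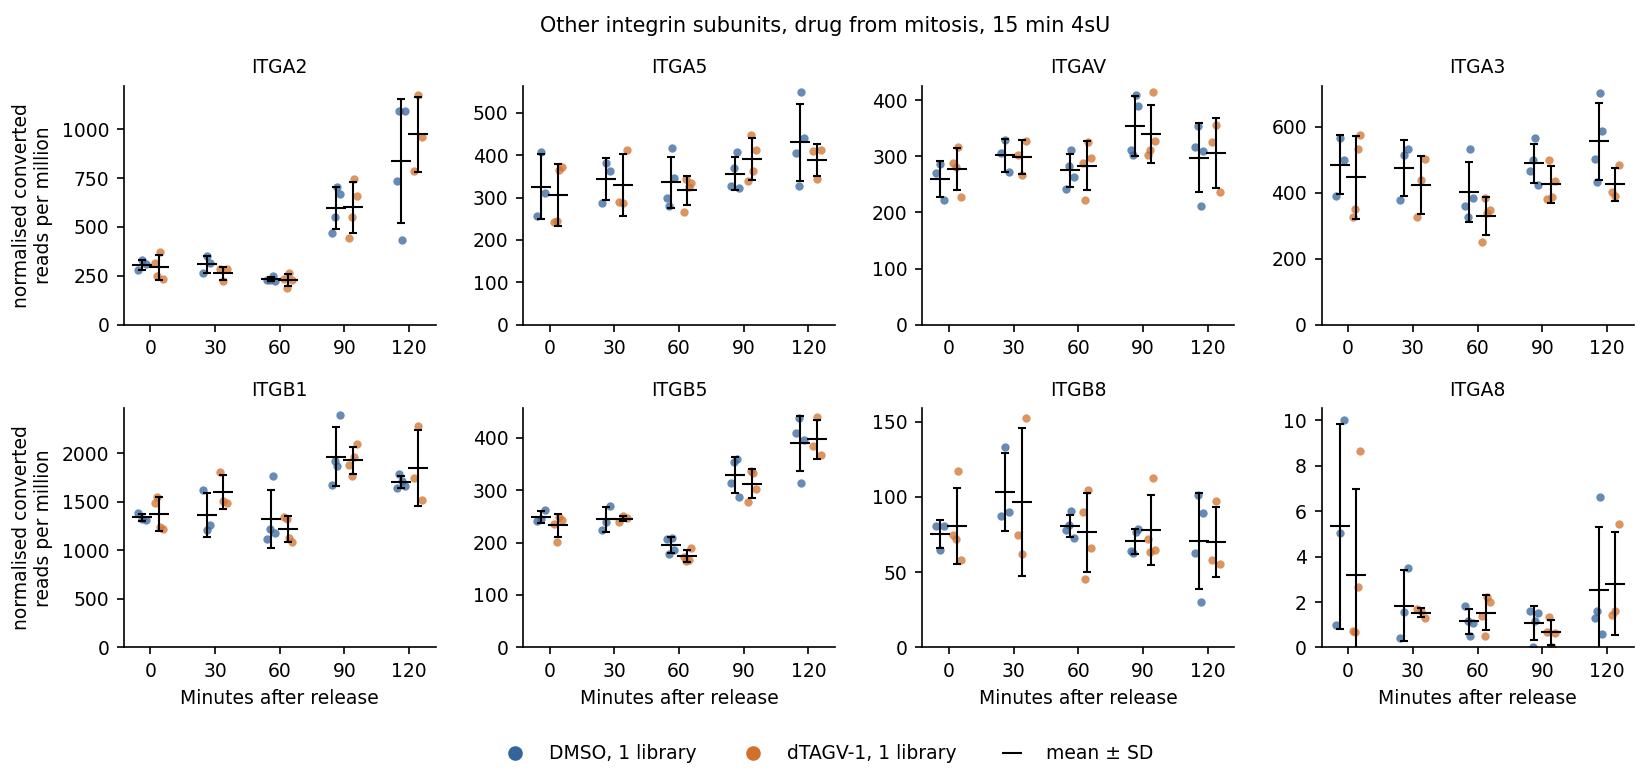
Converted reads in CPM (linear axes from 0, 1 scale per gene) of the integrin subunits other than ITGA11 and ITGB3 by time after release in the mitosis series with 15 min of 4sU. Points are single libraries, blue for DMSO and orange for dTAGV-1, with the mean ± SD in black (the bar of ITGA8 at 120 min in DMSO is cut at 0). ITGA2 goes from 306 to 838 CPM in DMSO and from 293 to 973 CPM in dTAGV-1 between 0 and 120 min.

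Between 4 and 8 h in DMSO, 3 of 8 subunits were called, all lower, against 13.3% of all genes. ITGAV fell by 0.73 ± 0.13 (245 to 147 CPM, adjusted p = 0.00147), ITGA2 by 0.50 ± 0.13 (937 to 660 CPM, adjusted p = 0.0157) and ITGB1 by 0.40 ± 0.12 (1173 to 889 CPM, adjusted p = 0.0392). Only ITGAV was called when DMSO replicate 2 at 4 h or either DMSO replicate at 8 h was left out. Scaling by all reads moved the median of all genes from 0.00 to 0.40 and brought ITGB1 to 0.0013. No subunit was called between 30 and 120 min in DMSO of the release series by edgeR (2 of 9 at an unadjusted p under 0.05, 2.18% of all genes called), where DESeq2 called ITGA11. ITGA11 had a change of 0.75 ± 0.20 (adjusted p = 0.0518).

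In cardiomyocytes titled as WTC11, 3 of 9 subunits were called with dTAGV-1, all lower, against 4.83% of all genes. ITGA11 stood at 15.0 and 16.6 CPM in DMSO and 5.00 and 2.82 CPM in dTAGV-1, a change of −2.01 ± 0.33 (adjusted p = 0.00432). ITGA8 stood at 9.94 and 7.10 CPM against 2.50 and 3.63 CPM, a change of −1.48 ± 0.27 (adjusted p = 0.00931). ITGB8 stood at 136.8 and 146.2 CPM against 101 and 81.7 CPM, a change of −0.63 ± 0.10 (adjusted p = 0.00412). The arms did not overlap for any of these 3 called genes. The share of all genes with arms that did not overlap was not counted here either, so this is a description only. ITGA8 was lost without DMSO replicate 1 (adjusted p = 0.054), and with the cardiomyocytes fitted alone only ITGA11 was called (0.0748 for ITGA8 and 0.0633 for ITGB8). The count went from 3 to 5 without dTAGV-1 replicate 1, when ITGA2 and ITGAV were also called.

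In the same comparison markers of other cell types moved. Fibroblast and smooth muscle markers summed to 559 to 591 CPM in DMSO and 304 to 339 CPM in dTAGV-1, with 3 of 9 called lower (ACTA2 by 1.02, TAGLN by 1.17 and COL1A2 by 0.97). Endothelial markers summed to 126 to 132 CPM and 56.2 to 75.5 CPM, with 1 of 4 called lower (KDR by 1.07), and none of these 13 markers was at 0. Neuron markers summed to 206 to 283 CPM and 159 to 172 CPM, with 2 of 7 called lower (MAP2 by 1.24 and SNAP25 by 1.14), and of 4 progenitor and glia markers NES was called lower, by 0.71. Cardiomyocyte markers summed to 3462 to 3813 CPM and 3713 to 3943 CPM, of which RYR2, a calcium release channel, made up 1800 and 2420 CPM on average. Of 8 cardiomyocyte markers the myosin heavy chains MYH7 (by 1.57) and MYH6 (by 0.59) were called lower and RYR2 (0.44) higher. The part of these cells in the changes of the integrins was not tested, and in bulk samples fewer cells of a type and less RNA per cell cannot be told apart.

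In neurons ITGA8 was the 1 subunit of 9 called, against 2.24% of all genes. It stood at 50.5 and 45.4 CPM in DMSO and 15.7 and 11.8 CPM in dTAGV-1, far apart, a change of −1.81 ± 0.19 (adjusted p = 0.000373). All reads of ITGA8 gave a change of −1.11 (adjusted p = 0.00462). The converted share of its reads was 24.8% in DMSO and 13.7% in dTAGV-1, while the median gene had 23.3% and 20.7%. In cardiomyocytes the converted share of ITGA8 was 29.5% and 14.5%, and that of ITGA11 was 31.9 ± 3.26% and 15.0 ± 0.567% (SD, n = 2 each), against 30.7% and 29.6% for the median gene. None of 9 fibroblast and smooth muscle markers and none of 4 endothelial markers was called in the neurons by edgeR or DESeq2 (1 of each list at an unadjusted p under 0.05). Of 7 neuron markers edgeR called none (1 at an unadjusted p under 0.05) and DESeq2 1, and they summed to 1835 to 1913 CPM in DMSO and 1734 to 1755 CPM in dTAGV-1. Cardiomyocyte markers in the neurons summed to 53.4 to 55.8 CPM in DMSO and 23.6 to 29.5 CPM in dTAGV-1. RYR2 made up 47.8 and 22.5 CPM of these on average and ACTN2 3.98 and 2.24 CPM, while TNNT2 averaged 0.0618 and 0.126 CPM. Of 8 tested 1 was called, RYR2 (−1.07 ± 0.14, adjusted p = 0.00197, edgeR). Which cells carry RYR2 there was not tested, nor was their part in the change of ITGA8.

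ITGB8 in neurons stood at 255.8 and 258.5 CPM in DMSO and 258.1 and 265.6 CPM in dTAGV-1, a change of 0.03 ± 0.10. ITGA11 was low there, at 2.92 and 0.831 CPM against 1.77 and 1.64 CPM, and its change was −0.12 ± 0.55 (adjusted p = 0.975). The drug effect in cardiomyocytes minus that in neurons was −1.89 ± 0.66 for ITGA11 (adjusted p = 0.374), 0.33 ± 0.35 for ITGA8 (adjusted p = 0.901) and −0.66 ± 0.14 for ITGB8 (adjusted p = 0.0788). None of 9 passed with edgeR (2 at an unadjusted p under 0.05), DESeq2 called ITGB8, and 0.595% of all genes were called. The median change over the 9 subunits was −0.32 in cardiomyocytes and −0.08 in neurons, and over all genes 0.01 and 0.00.

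**Figure D4:**
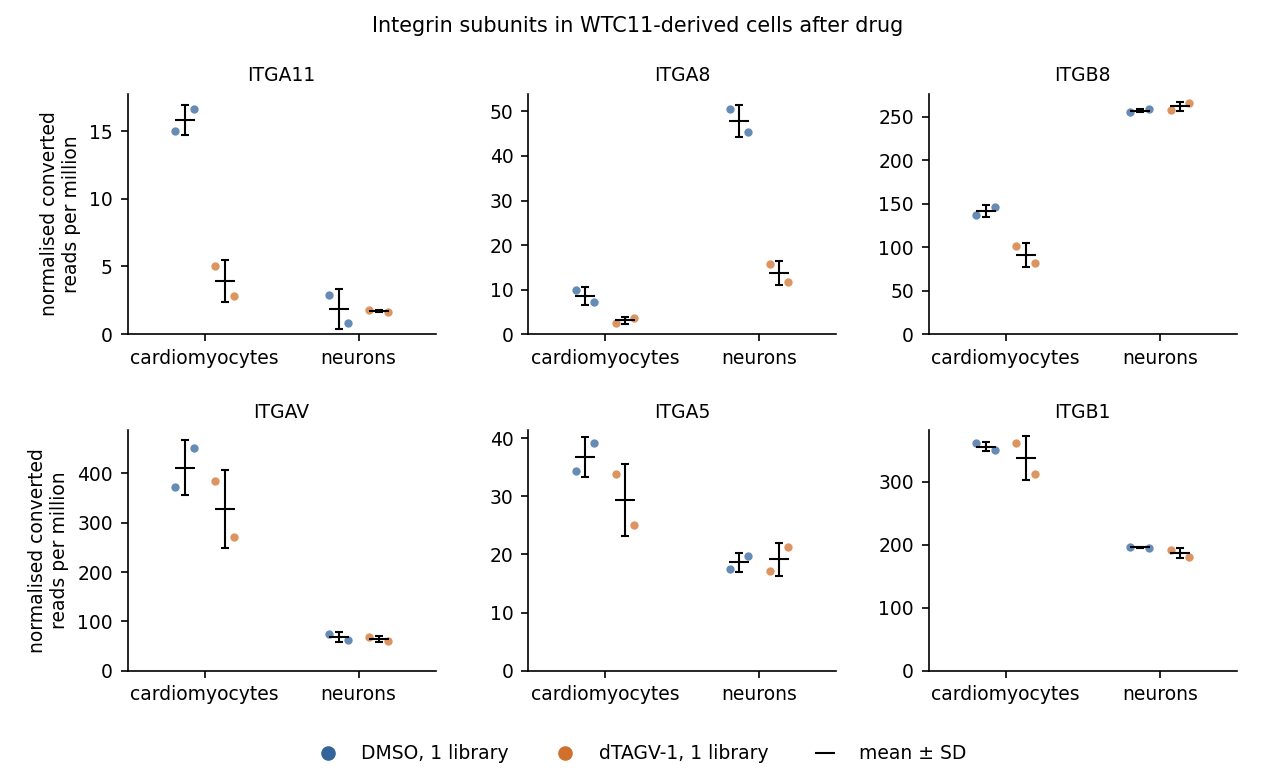
Converted reads in CPM (linear axes from 0, 1 scale per gene) of ITGA11, ITGA8, ITGB8, ITGAV, ITGA5 and ITGB1 in the WTC11 cardiomyocytes and neurons. Points are single libraries, blue for DMSO and orange for dTAGV-1, with the mean ± SD in black. ITGA8 stands at 45.4 and 50.5 CPM in DMSO neurons and 11.8 and 15.7 CPM with dTAGV-1, and at 2.50 to 9.94 CPM in all cardiomyocyte libraries.

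The subunits also differed between the cell types. In DMSO, 8 of 9 were called between neurons and cardiomyocytes, against 53.7% of all genes. ITGA11 (−3.08 ± 0.37), ITGAV (−2.59 ± 0.17), ITGA3 (−2.44 ± 0.22), ITGB5 (−1.90 ± 0.17), ITGA5 (−0.97 ± 0.17) and ITGB1 (−0.86 ± 0.09) were lower in neurons. ITGA8 (2.48 ± 0.19) and ITGB8 (0.86 ± 0.10) were higher in neurons, and ITGA2 was not called (−0.14 ± 0.29). With the DMSO libraries of 120 min of 4sU scaled together, ITGA11 stood at 83.6 and 109 CPM in the 2 RPE-1 series, 13.4 CPM in cardiomyocytes and 1.59 CPM in neurons. ITGA8 stood at 0.0784 and 0.362 CPM in RPE-1, 7.22 CPM in cardiomyocytes and 40.7 CPM in neurons. ITGA2 stood at 851 and 874 CPM in RPE-1 and 44.0 and 39.8 CPM in the differentiated cells. ITGA8 held 1330 converted reads over all libraries, and its RPE-1 values of 0 to 11.9 CPM with 15 min of 4sU rest on few reads, so a drug effect there was not detectable at this depth (0.03 ± 0.59 and 0.09 ± 0.58 in the means over 30 to 120 min).

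Of 16 other integrin subunits, 10 were tested at 4 to 8 h, where ITGA6, a laminin receptor subunit (−0.39), and ITGB6, a partner of ITGAV (−0.37), were called lower, a share near the 19.8% of all genes called there. In the mean over 30 to 120 min edgeR and DESeq2 called none of 10 in the mitosis series (0 at an unadjusted p under 0.05) and none of 9 in the release series (2 at an unadjusted p under 0.05). With 120 min of 4sU in the mitosis series ITGA6 was lower (−0.62) and ITGB7, a leukocyte subunit at 1.19 CPM in DMSO, higher (1.24) of 12 tested, against 2.46% of all genes. In the release series with the same label edgeR and DESeq2 called none of 12 (2 at an unadjusted p under 0.05), and ITGA6 had −0.42 (adjusted p = 0.367) and ITGB7 0.15 (adjusted p = 1). Whether the effect on either gene differed between these experiments was not tested. In cardiomyocytes 3 of 9 were lower, ITGA9 (−1.22), ITGA1 (−1.10) and ITGB6 (−0.57), against 4.83% of all genes called. In neurons 3 of 9 were lower, ITGA9 (−1.27), ITGA4 (−1.24) and ITGA6 (−0.49), against 2.24% of all genes called. ITGA1, like ITGA11 and ITGA2, is a collagen receptor subunit, and ITGA9 and ITGA4 form a related pair.

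Integrin ligands include matrix proteins and latent growth factors. Of 30 such genes 22 were tested at 4 to 8 h, and 11 of them were lower and 5 higher, against 19.8% of all genes called, with a median change of −0.35. The lower ones included THBS1, which encodes thrombospondin-1 (−2.65 ± 0.20, 1079 to 181 CPM), TGFB2, a TGF-beta ligand (−2.05), and COL4A1, a basement membrane collagen (−1.48). With 120 min of 4sU 6 of 22 were lower in the mitosis series (2.46% of all genes called), among them the fibrillar collagen COL5A2 (−2.04), THBS1 (−1.77) and the laminin chain LAMA4 (−1.43). In the release series with that label 2 of 22 were lower (0.718% of all genes called), COL5A2 (−1.03) and LAMC1 (−0.67). In the means over 30 to 120 min, 2 of 22 were lower in the mitosis series (COL5A2, −0.83, and COL4A1, −0.42), against 1.27% of all genes called. In those of the release series 5 of 22 were lower (THBS1, −0.80, COL5A2, −0.63, and LAMC1, −0.46, among them), against 2.1% of all genes called. In cardiomyocytes 9 of 29 were lower (4.83% of all genes called), including THBS1 (−1.91), TGFB2 (−1.47) and TNC (−1.46), and in neurons edgeR called none of 29 (6 at an unadjusted p under 0.05) and DESeq2 called 2.

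Of 26 genes for integrin activators and the adhesion plaque, 5 were lower and 1 higher at 4 to 8 h, a share near the 19.8% of all genes called, with FERMT1 (kindlin-1, −0.77), PXN (paxillin, −0.42) and TNS1 (tensin-1, −0.32) among the lower ones. PXN was also lower in both means over 30 to 120 min (−0.44 and −0.53), in the mitosis series as the 1 of 25 called (1.27% of all genes called). In the mean of the release series 2 of 24 were called (2.1% of all genes called), PXN and VCL, vinculin (−0.30). VCL was also the 1 of 26 called with 120 min of 4sU in the mitosis series (−0.66, with 2.46% of all genes called). In cardiomyocytes 4 of 26 were called, all lower (4.83% of all genes called), with VCL (−0.59), ACTN1 (−0.71) and TLN2 (−0.64) among them. In neurons edgeR and DESeq2 called none of 26 (2 at an unadjusted p under 0.05). In the release series with 120 min of 4sU edgeR called none of 26 (5 at an unadjusted p under 0.05) and DESeq2 called 1.

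The genes most like the 3 subunits called in at least 2 of the 7 main drug comparisons were found by Pearson's r over the mean log2 CPM of the 24 RPE-1 groups with 15 min of 4sU, among 16477 genes. For ITGA11 they were TMEM200A (0.916), CAV1, the caveolae protein caveolin-1 (0.898), and NR3C1, the glucocorticoid receptor (0.889). For ITGB8 they were NLN (0.925), FGD4 (0.919) and AC093818.1 (0.912). For ITGA8, which rests on few reads in these groups, they were JAKMIP1 (0.851), LINC00461 (0.85) and ACOXL (0.849). These groups share times, arms and depth, and the values are descriptions.

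None of the genes within 500 kb of ITGA11 was called lower with it. At 4 to 8 h 3 of 6 tested were called, against 19.8% of all genes. They were CORO2B (0.85 ± 0.10, adjusted p = 6.69e-06), PIAS1 (0.28, adjusted p = 0.021) and FEM1B (0.22, adjusted p = 0.0422), all higher. In the other 6 main drug comparisons edgeR called none of the 6 to 8 tested, where 9 of 42 values had an unadjusted p under 0.05 and DESeq2 called 1. Within 500 kb of ITGA8, FAM171A1 was lower at 4 to 8 h (−1.02 ± 0.08, adjusted p = 5.6e-08) and neither of the 2 genes tested was called in neurons or cardiomyocytes by edgeR or DESeq2 (0 at an unadjusted p under 0.05).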

How the data were processed

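Per the labels' protocols, RNA was extracted with TRIzol, alkylated with iodoacetamide and made into ribosome-depleted total RNA libraries. HISAT, Picard, HTSeq and hg38 are named in the submitters' processing notes. Their options, versions, strand setting and treatment of shared reads are not given in the sources used here. Each deposited table, 1 per library, gives the authors' raw counts per gene of converted and of all reads, counts of T positions, and the conversion rate as a fraction, per the file headers. The counts were used and the fraction was not. A gene absent from a table was taken as 0. Of 49186 genes, 279 on the Y chromosome or XIST were left out. Starts in the files were 1 below RefSeq's for 9214 of 28649 matched genes and equal for 528, so 1 was added.

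Converted reads were tested with edgeR 4.0.16 (R 4.3.3, limma 3.58.1), using TMM, filterByExpr (minimum count 10, total 15), the quasi-likelihood test, two-sided, and Benjamini-Hochberg adjustment over all genes tested, with a threshold of 0.05. The fits held the mitosis series at 0 to 120 min, its 4 to 8 h, the release series, the libraries with 120 min of 4sU, the WTC11 cells and, for the difference between the series, both series together. Averages over times take the mean of the single log2 changes, and their CPM are means over times. DESeq2 1.42.0, other scaling, no filter, a replicate block, all reads and left-out libraries were the alternatives. Scripts were tested on simulated data. Library totals set the precision. Intervals and floors cover counting error only, and no 2 libraries were identical. Per-length levels use the gene span in place of the exon length, since the tables give no exon lengths.

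Members and lists were chosen with earlier results of these data known. The members are named throughout. From each list of partner genes up to 3 called genes with the largest change are named. The neighbours within 500 kb were looked at after their members' values had been seen. Replicate numbers were taken to pair the arms where at least 3 pairs existed, each with a correlation of deviations over 0.1, and not by any label. This was so at 0 min of the mitosis series (0.165 to 0.526) and in its libraries with 120 min of 4sU (0.153 to 0.659). For the release series it was so in the libraries of 15 min of 4sU at 120 min (0.222 to 0.411). Groups with 2 pairs were not taken as paired, although those of the mitosis series at 30 min (0.244 and 0.423), 6 h (0.189) and 8 h (0.17) were over 0.1.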

Additional observations from a re-analysis of the deposited data

Results flagged for a closer look

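ITGA11 in replicate 1 of the DMSO libraries at 60 min in the mitosis series stood at 35.2 CPM, far from the other 3 libraries at 15.3 to 17.9 CPM. ITGA8 in replicate 3 of the DMSO libraries at 120 min stood at 6.64 CPM, from 4 converted reads, with the others at 0.603 to 1.6 CPM, and this is the library whose reads were concentrated in few genes. ITGB1 in replicate 3 of the DMSO libraries at 60 min stood at 1765 CPM, and the median of that group was 1200 CPM. These 3 of 54 groups of subunit values held a library that far from the rest, and chance gives about 1 in 20. The effect of dTAGV-1 on ITGA11 differed between the times of the release series (adjusted p = 0.0102, edgeR's quasi-likelihood test), with changes of −0.28 at 30 min and −2.42 at 120 min.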

How the results depend on the processing

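Of the counts of called subunits, 92 stayed within 1.5 times under the alternatives and 26 moved, and leaving out libraries kept 101 and moved 15. Of values of single called subunits, 180 kept direction and call, 30 lost the call and 1 changed direction, and leaving out libraries kept 216 and lost 25. The comparisons of 30, 60 and 90 min with 0 min are not in these tallies, and the 2 values of ITGB5 at 60 min that change direction with library sizes from all reads stand beside their result. Except where a cause is shown by fewer samples or genes, it was not tested.

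When all reads were tested instead of converted ones, the count was 0 in the mitosis series for the mean over 30 to 120 min, for its single times and for 120 min of 4sU, 0 for the single times, the 120 min of 4sU and the interaction with time of the release series, 0 for dTAGV-1 at 120 against 0 min and for 8 against 4 h in DMSO, and 1 for DMSO at 120 against 0 min. With library sizes from all reads it was 1 for the single times of the release series, 0 for its interaction with time, 2 (ITGA11 and ITGA2) for DMSO at 120 against 30 min there, and 1 (ITGA3) for 8 against 4 h, where the change of ITGB1 turned to 0.0013. Without the filter it was 2 for the single times of the mitosis series, 2 (ITGA11 and ITGA3) for its mean of 4 to 8 h, 1 for its interaction with time, 1 for DMSO at 120 against 30 min of the release series, and 2 (ITGA11 and ITGB8) for cardiomyocytes minus neurons. DESeq2 gave 1 for each of the last 2 comparisons. With DESeq2's size factors, or with the groups fitted alone, it was 1 for 120 min of 4sU in the mitosis series, and 1 for cardiomyocytes fitted alone.

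With the replicate number as a block, no call changed where the numbers paired the libraries. Elsewhere the libraries did not meet the rule for pairing, with fewer than 3 pairs or a correlation of 0.1 or less in some pair. At 90 min of the mitosis series replicate 4 fell short (0.0688), while replicates 1, 2 and 3 stood at 0.261, 0.122 and 0.24. In these other groups the block gave 2 for the single times of the mitosis series (ITGA11 at 90 min with an adjusted p of 0.00238, edgeR). It gave 2 for the mean of the release series (ITGA11 and ITGAV) and 1 for its DMSO at 120 against 30 min. ITGA8 in cardiomyocytes went to an adjusted p of 0.0582 (edgeR). For ITGA11 in the mitosis series, replicate 1 was the highest library of both arms at 60 min (35.2 CPM in DMSO and 23.4 CPM in dTAGV-1) and at 90 min (94.6 and 44.2 CPM). Leaving out replicates gave 0 to 1 for the mean and for the single times of the mitosis series, 1 to 1 for its 120 min of 4sU (ITGA11 each time), 2 to 5 in cardiomyocytes, 1 to 3 for 8 against 4 h, 0 to 1 for the interaction with time of the release series and 0 to 1 for cardiomyocytes minus neurons. Leaving out a replicate number could not be fitted at 4 to 8 h and in WTC11 cells, so single libraries were left out there, and this and the fit without the library of concentrated reads were chosen after seeing the data.

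With 2 to 4 libraries per arm and 15 to 45 converted reads of ITGA11 in the dTAGV-1 libraries at 0 min, changes at 0 to 60 min carry standard errors of 0.38 to 0.47, and ITGA8 in RPE-1 is close to the limit of detection.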
